A study of Mus musculus with 20 samples.

Results

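The cytosolic ribosome is built from ribosomal RNA and a fixed set of small basic proteins, and the genes of these proteins are the subject here. They were taken by name from the deposited FPKM table (fragments per kilobase of gene and M (mega) assigned reads): symbols of the form Rpl or Rps with a number and an optional a or x, together with Rplp0, Rplp1 and Rplp2, and no pseudogenes. This gave 75 genes of the 32081 listed, 46 of the large subunit and 29 of the small subunit. All 75 were also among the 20442 genes of the deposited log2 table and among the 16848 genes tested. The name form leaves out Rpsa, Rps3a1 and Fau, among others, which also encode ribosomal proteins and are described with other translation genes near the end.

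Each ribosome carries 1 copy of most of these proteins, so cells make them in near-equal amounts from genes scattered over the genome. In mammals their messages start with a C followed by a run of pyrimidines, the 5′ terminal oligopyrimidine tract (TOP), through which the mTOR pathway and the RNA-binding protein Larp1 set how much of each message is translated. Control of these genes in response to nutrients is therefore mainly translational, and RNA levels do not show it.

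The RNA came from aortic endothelium of female Apoe-/- mice of strain B6.129P2-Apoetm1Unc/J, which lack apolipoprotein E and were kept on regular chow. Every mouse, controls included, had 5/6 nephrectomy at 9 weeks of age, a surgery that leaves chronic kidney disease, then 1 retro-orbital injection 7 weeks later, and its tissue was taken 1 week after the injection. There were 4 mice in each of 5 groups. One group was given saline and another HDL alone at 4 mg. The remaining groups had the same HDL with LNA92a (20 mg/kg), with LNA489 (20 mg/kg) or with both (the dual group, 40 mg/kg of LNA in total). Each LNA is a locked nucleic acid inhibitor named for a microRNA, miR-92a or miR-489. No group received a control LNA, and no mice without surgery or with intact Apoe were included, so neither factor can be read from these libraries. Each library is called by its group and the number of its mouse, as in HDL 11, and the groups called LNA92a and LNA489 had HDL too.

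The start sites are shown first because the tract lies there. RefSeq promoters on build GRCm38.p6 matched 55 of the 75 genes and gave 65 start sites. Windows of 30 bases, from 10 bases before the start through the first 20 transcribed bases, were searched on the sense strand for a C followed by at least 5 further C or T. Of the 65 windows, 35 (53.8%, 33 genes) held such a tract, against 22.0% of all 32851 promoters searched alike. The windows below are 5′ to 3′ with the tract in capitals, for genes that the values turn on.
Rps6, chr4:86857348-86857377 (-): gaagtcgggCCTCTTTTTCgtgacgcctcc
Rps12, chr10:23787190-23787219 (-): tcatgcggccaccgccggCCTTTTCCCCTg
Rplp2, chr7:141447641-141447670 (+): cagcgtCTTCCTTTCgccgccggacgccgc
Rpl34, chr3:130730318-130730347 (-): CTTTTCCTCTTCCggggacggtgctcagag
Rps15a, chr7:118116128-118116157 (-): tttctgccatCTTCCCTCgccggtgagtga
Rps27, chr3:90213629-90213658 (-): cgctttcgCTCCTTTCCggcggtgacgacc
Rpl38, chr11:114668570-114668599 (+): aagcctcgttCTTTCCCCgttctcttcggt
Rpl39, chrX:37085203-37085232 (-): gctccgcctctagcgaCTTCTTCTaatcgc
Rpl13a, chr7:45128726-45128755 (-): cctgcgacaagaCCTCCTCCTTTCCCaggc
The other 4 windows shown are of genes with a central part in the results that had no such run, and they have no capitals.
Rplp0, chr5:115559457-115559486 (+): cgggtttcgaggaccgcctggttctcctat
Rpl10, chrX:74270806-74270835 (+): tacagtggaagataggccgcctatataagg
Rpl41, chr10:128549149-128549178 (-): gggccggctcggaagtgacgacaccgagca
Rps4x, chrX:102189372-102189401 (-): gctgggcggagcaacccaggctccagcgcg

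In the Rpl38 window the tract begins at the first transcribed base, and in the Rps6 window it begins 1 base before it. In the Rps12 window the tract begins at transcribed base 9 of the RefSeq start. The letters CCGGAAG, the core of sites for ETS-family factors, were found on either strand in the 300 bases from 250 before to 50 after the start in 23 of 65 promoters (35.4%), against 8.86% of all promoters. Its reverse complement, CTTCCGG, can overlap a pyrimidine tract. TATAAA on either strand in the 50 bases before the start was found in 0 of 65, against 3.504% of all promoters. A match is a run of letters and not a measured site, and no match says only that the letters are absent from that window.

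Library depth was 11.6 to 21.4 M assigned reads, with reads in 17378 to 23365 genes. Rn18s-rs5, a gene of 18S ribosomal RNA, took 3.25% to 22.4% of the reads, with 16.5% ± 7.16 (SD, n = 4) in LNA92a and 7.07% ± 2.71 (SD, n = 4) in HDL. FPKM is divided by all assigned reads, so ribosomal reads lower the FPKM of every other gene, whereas the log2 values were scaled by the authors between libraries. The 8 endothelial marker genes, summed, ranged from 53.2 to 1993 FPKM, both within the HDL group, and the label of aortic endothelium therefore covers libraries with very different endothelial content. Adipocyte genes summed to 40.7 to 1330 FPKM and macrophage genes to 554 to 10723 FPKM. HDL 11 had a summed B and plasma cell marker level of 4899 FPKM, against at most 813 FPKM in the LNA489 group and at most 454 FPKM in the LNA92a, dual and saline groups.

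Per kilobase of the deposited gene lengths, the 75 genes spanned a 66.1-fold range of mean FPKM. The median gene stood at 82.4 FPKM. The ends of the order were Rps12 (ENSMUSG00000061983.6, chr10:23785183-23787275 on GRCm38) and Rpl13a (ENSMUSG00000074129.13, chr7:45125558-45128761), both on the minus strand. The highest means were those of Rps12 (487 ± 118, SD over 20 libraries), a small subunit protein, Rplp1 (413 ± 138), a stalk protein that recruits elongation factors, and Rpl4 (358 ± 90.7), which lines the exit tunnel of the growing peptide. Rpl17 (327 ± 70.1), another protein at the tunnel, and Rps26 (317 ± 98.5), at the mRNA exit channel of the small subunit, followed. The lowest means were those of Rpl13a (7.36 ± 2.90), known also for its role in the translational silencing complex GAIT, Rpl24 (8.68 ± 2.81), which forms a bridge between the subunits, Rps15a (11.6 ± 2.76), Rps28 (13.5 ± 3.74) and Rpl35a (18.5 ± 3.91). Neighbours in this order mostly overlapped across libraries: Rps12 ran from 345 to 735 FPKM and Rplp1 from 208 to 684 FPKM.

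**Figure D1:**
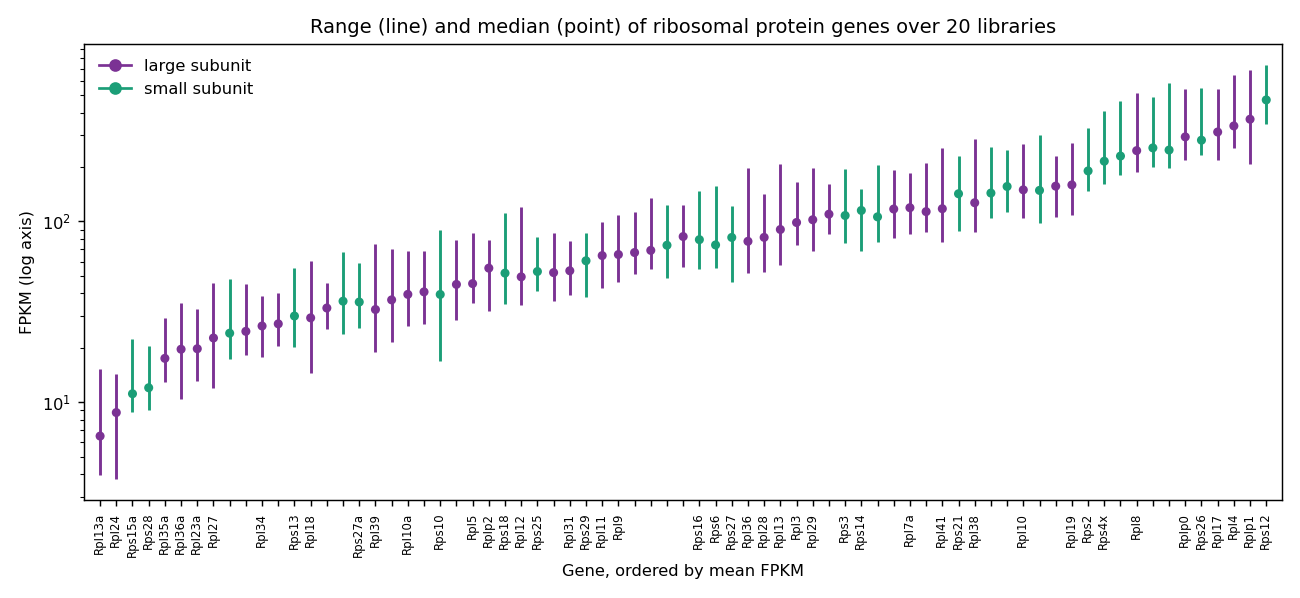
Range (line) and median (point) of FPKM over 20 libraries for 73 of the 75 genes, ordered by mean FPKM on a log axis and coloured by subunit, with names for genes described in the text. Means run from 7.36 (Rpl13a) to 487 FPKM (Rps12), both subunits are spread along the whole order, and the lines of neighbouring genes overlap.

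Part of this spread follows the length used. The deposited length of a gene is that of its merged exons, from 404 bases (Rpl36) to 6270 bases (Rps15a), and across the 75 genes Spearman's rho of mean FPKM with it was -0.49, a description over genes that share the same 20 libraries. Scaled to the length of 1 principal transcript instead, the range shrank to 35.4-fold, with Rpl4 highest (468 per kilobase) and Rpl24 lowest (13.2 per kilobase). Rps12, the highest gene on the deposited lengths, stood at 397 on that scale.

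Copies in the genome limit how exactly a single gene can be read. Of the 75 genes, 74 shared at least 1 stretch of 50 bases with transcripts of other GENCODE M21 genes, and 40 shared at least 50% of theirs, with a median of 51.7%. Rps27 shared 98.6% and Rpl24 81.7%. In the table, 210 named pseudogenes of 53 members held reads that amounted to 2.87% to 4.90% of the members' own, led by Rpl31-ps8 with a mean of 148 FPKM. Exons of another gene overlapped 26 members on the same strand and 18 on the opposite strand. How reads with several matches and strand were treated was not given in the sources used here, so the level of any 1 gene with copies is uncertain.

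The genes together took 0.942% (LNA489 7) to 2.10% (HDL 11) of all assigned reads in a library. The Wilson 95% intervals of these shares reach at most 0.0073 percentage points to either side and cover counting error only. By group the share was 1.42% ± 0.255 for dual, 1.37% ± 0.492 for HDL, 1.24% ± 0.272 for LNA489, 1.14% ± 0.151 for saline and 1.09% ± 0.110 for LNA92a (SD, n = 4 each). Of reads in nuclear protein-coding genes, which leaves out ribosomal and mitochondrial reads, the share ran from 1.21% (Saline 9) to 2.74% (HDL 11). On this base LNA92a was the highest group at 1.96% ± 0.195 and saline the lowest at 1.66% ± 0.529, so the order of LNA92a among the groups depended on the denominator. Fewer cells of a type and less RNA per cell cannot be told apart in such bulk libraries.

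**Figure D2:**
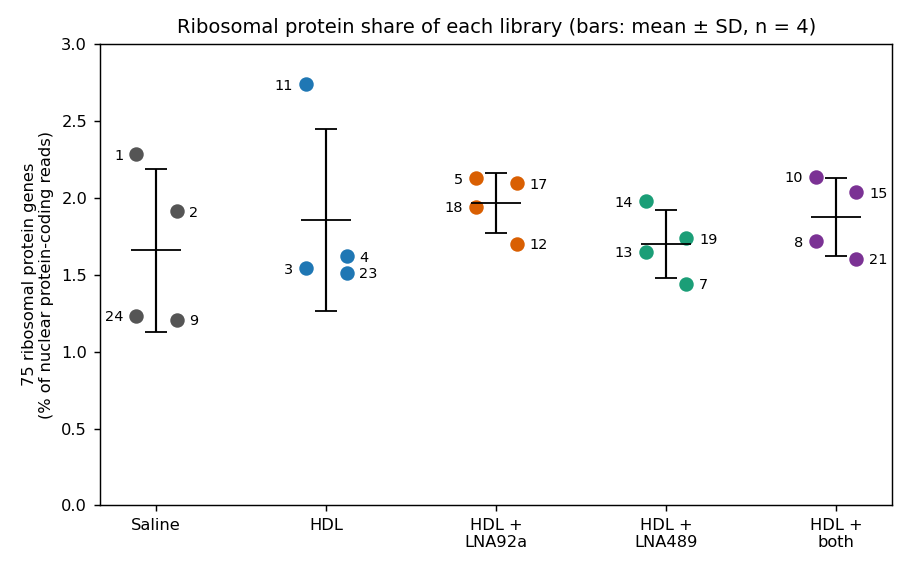
Share of nuclear protein-coding reads in the 75 genes (%), 1 point per library labelled with its animal number, with group mean and SD as bars (n = 4). HDL 11 at 2.74% lies above all other libraries, Saline 9 and 24 lie lowest at 1.21% and 1.23%, and the ranges of all 5 groups overlap.

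Saline libraries fell into a high and a low pair. The mean log2 value of the 75 genes was 11.09 and 10.97 in Saline 1 and 2 and 10.30 and 10.23 in Saline 9 and 24. Other measures divided these 4 libraries the same way. The 18S share was 12.2% and 12.0% in Saline 1 and 2 and 3.94% and 3.90% in Saline 9 and 24, and mitochondrially encoded reads took 22.3% and 12.2% against 2.57% and 3.45%. The adipocyte list mean (log2) was 11.38 and 11.07 against 6.67 and 8.41, and the endothelial list mean 9.45 and 10.63 against 11.51 and 12.90. The part of these measures in the split was not tested. In HDL it was 10.62, 10.83, 11.28 and 10.59 (HDL 3, 4, 11 and 23), and in LNA92a 11.15, 10.83, 11.06 and 11.01 (LNA92a 5, 12, 17 and 18). LNA489 libraries gave 10.63, 10.75, 10.91 and 10.76 (7, 13, 14 and 19), and dual libraries 10.78, 11.01, 11.04 and 10.61 (8, 10, 15 and 21). The spread within saline (SD 0.45) and within HDL (SD 0.32) was larger than that within LNA92a (0.13), LNA489 (0.12) and dual (0.20). Group means were 10.65, 10.83, 11.01, 10.76 and 10.86 in the order given.

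The genes moved together from library to library. The correlation of each gene's log2 value with the mean of the other 74 over the 20 libraries had a median of 0.86, with 67 genes at 0.7 or more, 50 at 0.8 or more and 22 at 0.9 or more. With group means removed the median was 0.85, and without HDL 11 it was 0.84. The highest values were those of Rpl19 (0.96), Rps18 (0.96) and Rpl17 (0.96), and the lowest those of Rpl24 (0.29), Rpl13a (0.34), Rps15a (0.58), Rps14 (0.59) and Rpl10 (0.61). Rpl24, Rpl13a and Rps15a were also the 3 genes with the lowest FPKM. The mean of the large subunit genes and that of the small subunit genes had r = 0.97 over the libraries, and their gap ranged only from 0.11 to 0.35 log2 units. These are descriptions over 20 libraries that share depth, scaling and tissue make-up.

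**Figure D3:**
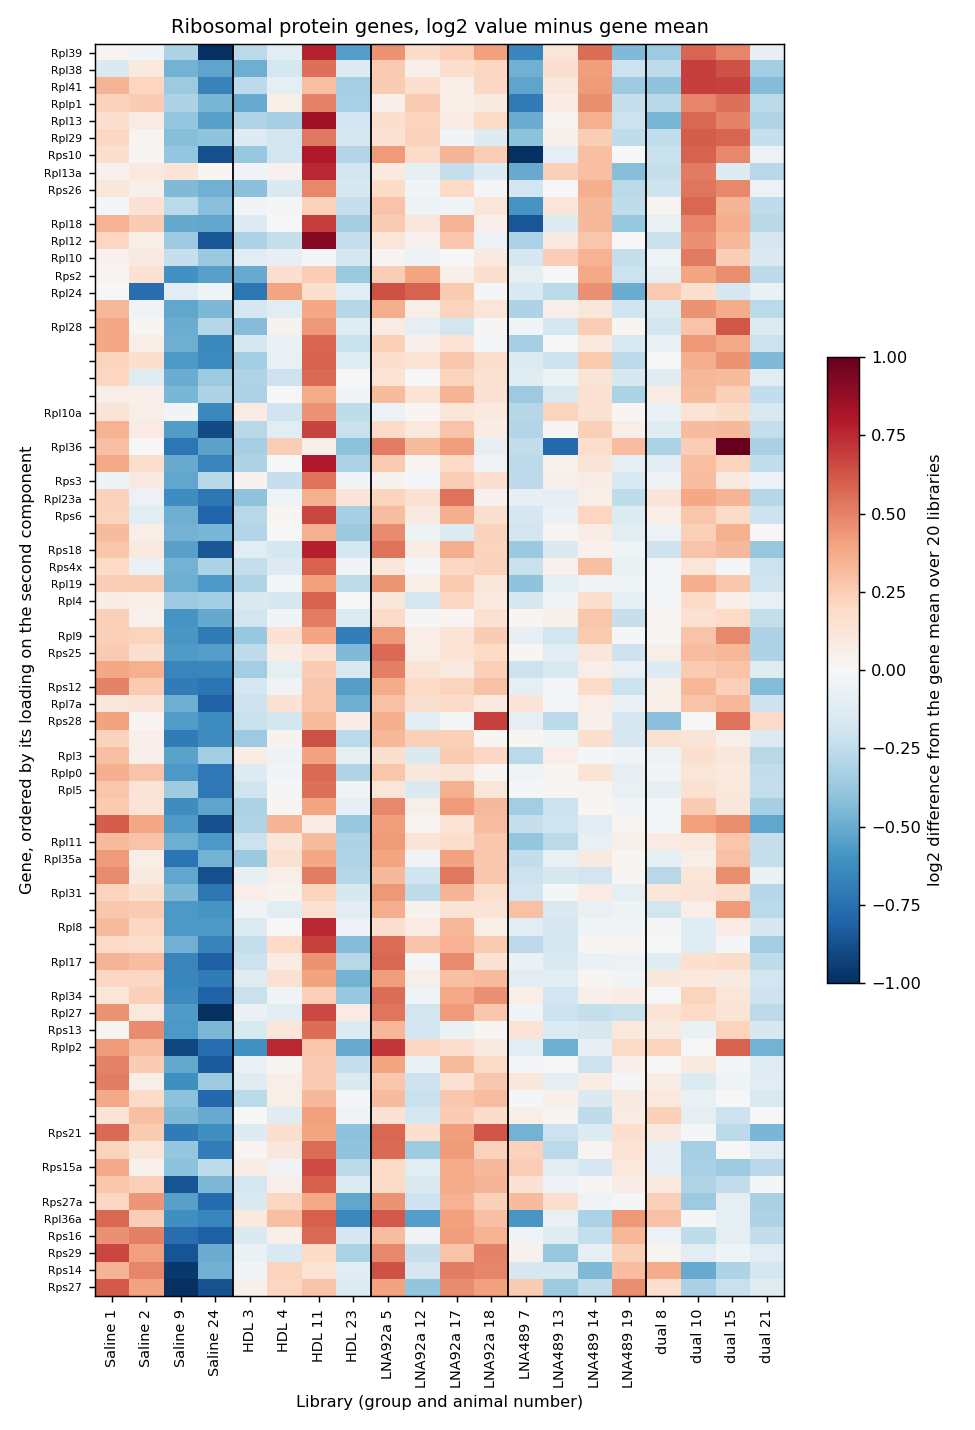
Log2 value of 73 of the 75 genes minus the gene's mean over 20 libraries (names are given for genes described in the text), with genes ordered by their loading on the second component and libraries grouped by treatment. HDL 11 is a nearly unbroken column of high values, Saline 9 and 24 are columns of low values, and the genes at the top and bottom part in dual 10, dual 15 and LNA489 14.

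The first principal component of the 75 genes held 69.3% of their variance with all 75 loadings of the same sign. The SD of a gene's log2 value over the libraries had a median of 0.32, against 0.44 in the 5607 other tested genes with at least the mean FPKM of the lowest member, and 69 of the 75 lay below that 0.44. Those other genes were not matched in level to the members, whose median was 82.4 FPKM. Over all tested genes, with lower levels included, the median SD was 0.51. The steadiest genes were Rpl4 (0.21), Rpl10 (0.22), which joins the large subunit last, Rps3 (0.23) at the mRNA entry channel, Rpl10a (0.23) and Rpl3 (0.23), near the centre of peptide bond formation. The most variable were Rplp2 (0.48), a stalk protein, Rpl39 (0.47), at the tunnel exit, Rpl36 (0.47), Rps10 (0.46) and Rps27 (0.45).

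HDL 11 had the largest share of reads in these genes and the highest mean log2 value of all libraries. Every one of the 75 genes was above its median in the other 19 libraries there, by 0.02 (Rpl10) to 0.91 (Rpl12) and by a median of 0.44 log2 units, while 52.5% of all tested genes were above theirs, with a median of 0.05. It held the highest log2 value for 33 genes and the highest FPKM for 56. Rpl12, at the base of the stalk, measured 120 FPKM in HDL 11 and 44.99, 37.5 and 49.1 in HDL 3, 4 and 23. Rps18 measured 111 FPKM there and 52.6, 39.8 and 51.7 in those 3 libraries. The library is also the one with the B and plasma cell marker level of 4899 FPKM, and the part of these cells in the ribosomal protein values was not tested. At the other end, Saline 24 held the lowest log2 value for 40 genes and Saline 9 for 28.

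Across the 20 libraries the mean log2 value of the genes was related inversely to the endothelial list mean (r = -0.51, rho = -0.56, and r = -0.60 with group means removed) and directly to the adipocyte list mean (r = 0.53, rho = 0.45, and r = 0.69 without HDL 11). For the striated muscle list r was 0.49 (rho = 0.53), and for brown fat 0.49 (rho = 0.38). For the B and plasma cell list r was 0.48 (rho = 0.36), and it was 0.31 without HDL 11. The relation to the share of mitochondrially encoded reads was r = 0.50 (rho = 0.55). Without the 2 libraries farthest on each measure, r was -0.50 for the endothelial list, 0.46 for striated muscle, 0.38 for mitochondrial reads, 0.35 for adipocytes, 0.32 for brown fat and 0.21 for B and plasma cells, so the last rested on those libraries. The other 9 measures had r of -0.37 (macrophage) to 0.43 (fibroblast). These are 6 of 15 measures set beside the mean, they are given as descriptions without a test, and the part of tissue make-up in the differences below was not tested.

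A second component held 12.3% of the variance and set some ribosomal protein genes against others. On its high side stood Rps27 (loading 0.31), a zinc-binding small subunit protein, Rps14 (0.30), Rps29 (0.19), Rps16 (0.19), Rpl36a (0.18) and Rps27a (0.18), which is made as a fusion with ubiquitin. On its low side stood Rpl39 (-0.21), Rpl38 (-0.21), a protein known for its part in translating Hox messages, Rpl41 (-0.20), the smallest ribosomal protein, Rplp1 (-0.20), Rpl13 (-0.20) and Rpl29 (-0.19). Rps27 had log2 values of 9.97 and 10.07 in dual 10 and 15 and of 10.46 and 10.17 in dual 8 and 21. Rpl38 went the other way, with 10.84 and 10.80 in dual 10 and 15 and 9.90 and 9.81 in dual 8 and 21. By rank, dual 10 and 15 were the lower dual libraries for Rps27 and the higher ones for Rpl38. For Rps27 the step between dual 15 (10.07) and dual 21 (10.17) was small, and dual 8 lay farther off. These genes were taken from opposite sides of the component, on which dual 10 and 15 scored lowest. Their opposite order is therefore no separate result. Both genes carry a pyrimidine tract at the start, as the windows above show.

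Scores on the second component were lowest in dual 10 (-2.12), dual 15 (-1.57) and LNA489 14 (-1.54) and highest in LNA489 7 (1.41) and LNA489 19 (1.27), so the groups with LNA489 held both ends. They followed the share of 18S reads (r = 0.68, rho = 0.81, and r = 0.81 with group means removed) and, inversely, the number of assigned reads (r = -0.76, rho = -0.58). Without the 2 libraries farthest on the 18S share, r was 0.77, and without the 2 farthest on depth it was -0.60. The scores were set beside the same measures as the mean log2 value above, and the 18S share and depth were the strongest. For the rest, r ran from -0.39 (macrophage) to 0.34 (mitochondrially encoded reads). The 10 genes with the lowest loadings had a median transcript GC content of 56.2% and the 10 with the highest loadings 50.6%, and over the 75 genes rho of loading and GC content was -0.25. Whether 18S content, depth or base composition took part in this second pattern was not tested.

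**Figure D4:**
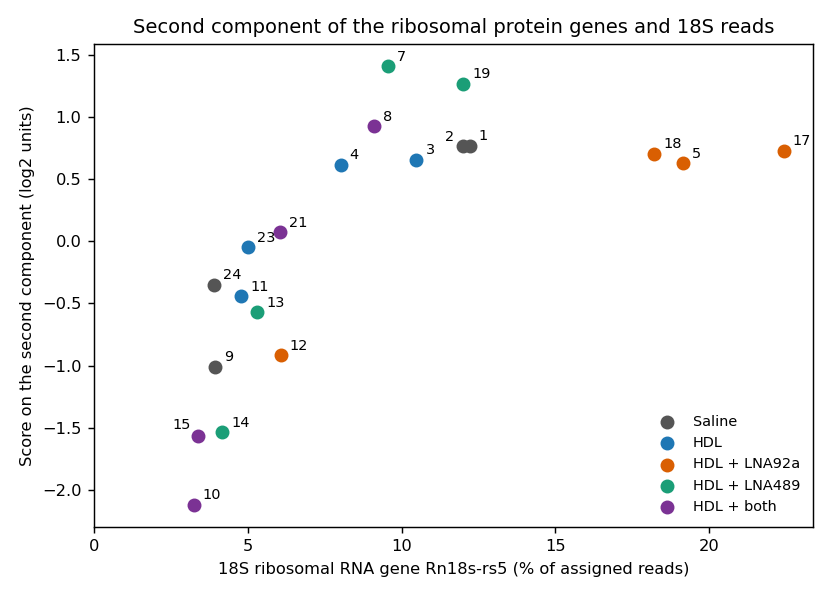
Score of each library on the second component of the 75 genes (log2 units) against the share of assigned reads in Rn18s-rs5 (%), coloured by group and labelled with the animal number. Dual 10, dual 15 and LNA489 14, with 3.25% to 4.16% of 18S reads, have scores of -1.54 or less, and all libraries above 8% have positive scores.

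Treatment was compared with limma on the log2 values of all 16848 genes, with 5 group means over 20 libraries and Benjamini-Hochberg adjustment. In none of the 5 comparisons, nor in the F-test over the 5 groups, did any of the 75 genes pass an adjusted p of 0.05, and the share called over all genes was 0.0% in each. At an unadjusted p under 0.05 the count of the 75 genes was also 0 in each comparison. Over all genes that share was 1.67% for HDL against saline (281 genes), 3.53% for LNA92a against HDL (595), 3.79% for LNA489 against HDL (638), 2.47% for the dual group against HDL (416) 1.05% for the dual group against saline (177) and 1.68% for the F-test (283). No ribosomal protein gene had groups that did not overlap in any comparison. Over all genes, in the same order, groups did not overlap for 0.629%, 0.855%, 0.415%, 0.748% and 0.368% as higher genes and for 0.344%, 1.37%, 1.13%, 1.13% and 0.594% as lower genes. The smallest F-test p among the members was that of Rpl34 (limma, adjusted p = 1.0). The SE of a single member's difference had a median of 0.23 log2 units, which is not the error of a median over the 75. The 4 comparisons that use HDL share its 4 libraries, HDL 11 included, and those against saline share Saline 9 and 24.

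**Figure D5:**
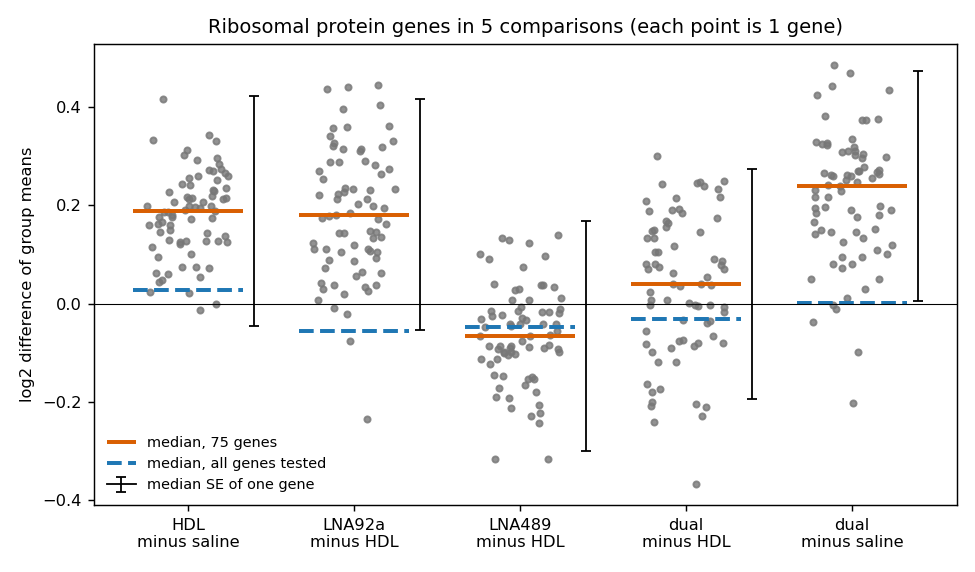
Log2 difference of group means for each of the 75 genes in 5 comparisons, with the median of the 75 genes (solid line), the median of all 16848 genes (dashed line) and the median SE of a single gene (bar on the right). The medians of the 75 genes are 0.19, 0.18, -0.07, 0.04 and 0.24, and no gene in any comparison passed an adjusted p of 0.05.

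The effect of the lipoprotein by itself is read from HDL against saline. The differences of the 75 genes had a median of 0.19 (all genes: 0.03), and 73 of them were above 0, compared with 54.0% of all genes. Among the higher members with the smallest p values were Rpl27 (0.42 ± 0.28 SE) and Rps6 (0.31 ± 0.23), each with a limma adjusted p of 1.0. Rps29 (-0.01 ± 0.27) and Rplp1 (0.00 ± 0.28) were the 2 that were not above 0. Rps6, the substrate of the S6 kinases downstream of mTOR, measured 83.4, 69.7, 69.1 and 55.1 FPKM in Saline 1, 2, 9 and 24. In HDL 3, 4, 11 and 23 it measured 71.6, 70.0, 158 and 70.9 FPKM. HDL 11 is the high library, and the other 3 HDL libraries lie within the range of saline. Without HDL 11 the median of the 75 differences fell to 0.04 with 49 genes above 0. Without Saline 24 it was 0.05 and without Saline 9 it was 0.07, and weighting the libraries by their quality in limma gave 0.04.

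By role, the 2 proteins that carry the 5S RNA into the ribosome and also bind Mdm2, Rpl5 and Rpl11, had a median of 0.17 for HDL against saline, and both were above 0. The 8 proteins of the exit tunnel had a median of 0.21 with all 8 above 0, and the 5 of mRNA entry and decoding a median of 0.22 with all 5 above 0. Of the 3 stalk proteins 2 were above 0, with a median of 0.19, which was -0.01 without Saline 9 and -0.04 without HDL 4. The 5S pair's median was 0.00 without Saline 24. Large and small subunit genes had medians of 0.17 and 0.21. These medians lay close to that of all 75 genes, and none of these members passed the test.

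LNA92a against HDL asks what the first inhibitor added to HDL. The median of the 75 differences was 0.18 (all genes: -0.06), and 71 genes were above 0 compared with 44.2% of all genes. Rpl34 had the smallest p (0.44 ± 0.22 SE), followed by Rps21 (0.44 ± 0.26) and Rps25 (0.36 ± 0.22), each with a limma adjusted p of 0.867. On the other side stood Rpl13a (-0.23 ± 0.25), Rps13 (-0.08 ± 0.22) and Rpl28 (-0.02 ± 0.23). Rpl34, a large subunit protein, had log2 values of 9.80, 9.99, 10.27 and 9.65 in HDL 3, 4, 11 and 23, and of 10.59, 10.00, 10.41 and 10.49 in LNA92a 5, 12, 17 and 18. The groups overlap at HDL 11 and LNA92a 12.

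On FPKM the sign of this comparison turned. FPKM counts 18S reads in its denominator, and the part of these reads in the change was not tested. On log2(FPKM + 0.1) the median of the 75 genes was -0.24 and that of all genes -0.47, and 4 of the 75 were above 0. Relative to all genes the 75 were 0.24 higher on the log2 values and 0.23 higher on log2(FPKM + 0.1). On both, 73 of 75 lay above the median of all genes. A scale that differs only between libraries cancels in this difference, so the closeness of these values is no separate support. On log2(FPKM + 1) the 75 were 0.12 higher, with 61 above the median of all genes. In FPKM, Rpl34 measured 24.4, 22.1, 38.5 and 22.5 in HDL and 26.6, 25.4, 24.3 and 30.7 in LNA92a, with group means of 26.9 ± 7.79 and 26.8 ± 2.80 (SD, n = 4). Without HDL 11 the median on the log2 values was 0.34, and with weighted libraries it was 0.35.

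LNA489 against HDL asks the same of the second inhibitor. The median was -0.07 (all genes: -0.05), with 17 of 75 genes above 0 compared with 44.8% of all genes. The smallest p values belonged to Rpl27 (-0.32 ± 0.28 SE), Rpl18 (-0.32 ± 0.28) and Rpl8 (-0.23 ± 0.22), each with a limma adjusted p of 0.92. On the higher side they belonged to Rpl10 (0.14 ± 0.19), Rps2 (0.13 ± 0.24) and Rpl9 (0.13 ± 0.26). Rpl27 had log2 values of 9.02, 8.97, 9.74 and 9.16 in HDL and of 9.05, 8.87, 8.84 and 8.86 in LNA489. LNA489 7 lies among HDL 3, 4 and 23, and the other 3 LNA489 libraries lie below them. Without HDL 11 the median of the 75 genes was 0.09 with 56 above 0, and with weighted libraries it was 0.12 with 62 above 0.

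For the dual group against HDL the median was 0.04 (all genes: -0.03) with 44 genes above 0, compared with 46.4% of all genes. Rps15a had the smallest p (-0.37 ± 0.21 SE, limma adjusted p = 0.998). Its log2 values were 10.13, 10.03, 10.71 and 9.79 in HDL and 9.98, 9.74, 9.69 and 9.78 in dual 8, 10, 15 and 21, and HDL 23 lay within the dual range. Rpl8 (-0.20 ± 0.22) and Rps16 (-0.24 ± 0.27) followed on that side. The higher side was led by Rpl10 (0.24 ± 0.19), Rps26 (0.25 ± 0.23) and Rps2 (0.24 ± 0.24). Rpl10 measured 148, 269, 187 and 164 FPKM in dual 8, 10, 15 and 21, and 153, 123, 184 and 151 FPKM in HDL 3, 4, 11 and 23. Dual 10 and 15 are its high libraries, and the other 2 lie within the HDL range. Without HDL 11 the median of the 75 genes was 0.19 with 68 above 0, without HDL 23 it was -0.05 with 31 above 0, and with weighted libraries 0.26 with 67 above 0. Leaving out HDL 3, dual 10 or dual 15 also gave a value below 0 (-0.04, -0.01 and -0.03).

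The dual group against saline spans all agents at once. The median was 0.24 (all genes: 0.00), with 70 of 75 genes above 0 compared with 50.2% of all genes. Rpl23a, which sits at the tunnel exit where the signal recognition particle docks, had the smallest p (0.43 ± 0.24 SE, limma adjusted p = 1.0). Its log2 values were 8.34, 8.05, 7.48 and 7.39 in saline and 8.24, 8.49, 8.45 and 7.82 in the dual group. Saline 9 and 24 lie below every dual library, and Saline 1 and 2 lie within the dual range. Rpl7a (0.38 ± 0.22) and Rps26 (0.38 ± 0.23) came next, and Rps15a (-0.20 ± 0.21), Rpl13a (-0.10 ± 0.25) and Rps21 (-0.04 ± 0.26) led the lower side. The median fell to 0.08 without Saline 24 and to 0.11 without Saline 9, and it was 0.16 without dual 10 and 0.15 without dual 15. It rose to 0.38 without Saline 1.

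The stalk shows how members of 1 structure differ in spread. Rplp0, its scaffold and a common reference gene in PCR, measured 341, 339, 243 and 220 FPKM in the saline libraries and 295, 250, 542 and 270 FPKM in the HDL libraries. With the inhibitors it measured 244, 318, 228 and 254 FPKM (LNA92a), 253, 346, 384 and 269 FPKM (LNA489) and 291, 399.6, 329 and 299.95 FPKM (dual). Its log2 SD over libraries was 0.30 and its r with the other members 0.95, and its largest difference among the 5 comparisons was 0.19 ± 0.25 SE (HDL against saline). Rplp1 ran from 208 FPKM in LNA489 7 to 637 FPKM in LNA489 14, within 1 group. Rplp2 ran from 31.8 FPKM in Saline 9 to 78.8 FPKM in dual 15. The 3 stalk genes thus had log2 SDs of 0.30, 0.37 and 0.48.

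Rpl5 and Rpl11 were close to the other members in every comparison. In the order saline, HDL, LNA92a, LNA489 and dual, Rpl5 averaged 45.4 ± 7.22, 56.2 ± 20.8, 41.2 ± 4.00, 49.4 ± 8.14 and 53.2 ± 8.98 FPKM (SD, n = 4). Rpl11 averaged 63.4 ± 10.9, 69.5 ± 19.9, 61.4 ± 8.30, 60.1 ± 12.3 and 75.3 ± 9.76 FPKM in the same order. Group ranges overlapped in all 5 comparisons for both. LNA92a (35.2 to 43.7 FPKM) and dual (45.3 to 65.7 FPKM), which were not compared, did not overlap for Rpl5 on FPKM. On the log2 values they did overlap, at 11.28 to 11.78 in LNA92a and 11.18 to 11.58 in dual. The share of all genes without overlap was not counted for this pair. Rps4x, encoded on the X chromosome, ran from 161 FPKM in LNA92a 5 to 408 FPKM in HDL 11, Rpl3 from 73.8 to 166 FPKM and Rpl41 from 76.96 FPKM in LNA489 7 to 256 FPKM in dual 10. Rps27a lay between 25.6 FPKM (Saline 24) and 59.2 FPKM (HDL 11).

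Ribosomal proteins outside the name form varied with the members. Rps3a1 (252 FPKM on average) had r = 0.95 with the mean of the 75, Fau (92.0 FPKM), which is made as a fusion with a ubiquitin-like protein, 0.91, Rpsa (126 FPKM) 0.86, and Rack1 (62.0 FPKM), a scaffold on the small subunit, 0.81. Fau averaged 80.6 ± 15.1 FPKM in saline and 104 ± 43.9 in HDL, and Rpsa 118 ± 36.6 and 148 ± 70.7 FPKM (SD, n = 4). Both were highest in HDL 11, at 169 FPKM (Fau) and 254 FPKM (Rpsa), and that library raises both HDL means. None of these 4 genes passed the test in any comparison. The paralogs were lower: of 9 listed, 7 were tested, and Rpl22l1 (5.07 FPKM), Rpl7l1 (14.6), Rpl36al (14.2) and Rps4l (5.17) stood below most members, while Rps27l (53.8) and Rps27rt (58.6) were at member level. All 7 were above 0 for the dual group against saline (median 0.28), and 0 passed. Rpl3l, the muscle form of Rpl3, averaged 2.86 ± 4.25 FPKM in LNA489 and 0.60 ± 0.70 FPKM in saline, and reached 9.18 FPKM in LNA489 14, without which the LNA489 mean was 0.75 ± 0.58 FPKM (SD, n = 3).

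The 15 listed translation factors and related genes, known for tract-bearing messages, had r of 0.29 (Eif4b) to 0.93 (Eef1a1) with the mean of the 75 over 20 libraries, with a median of 0.74. Their own start sites were not searched. Genes were also ranked by this r, so the values given next are those that put them at the top. Over all 13691 candidate genes with a mean of at least 1 FPKM that were no ribosomal protein gene or pseudogene, the closest to the mean of the 75 over 20 libraries was Eef1a1, the elongation factor that brings tRNA to the ribosome (r = 0.93, 1260 FPKM). Eef1b2, its exchange factor (r = 0.86), and Npm1, a nucleolar chaperone (r = 0.86), came next. They were followed by Ccdc53 (0.83), Grcc10 (0.83), Btf3 (0.83), which binds the nascent chain, Pfdn5 (0.82), Slpi (0.82), Serpinb1a (0.81) and Eef1d (0.81). Of the 15 listed factors, 14 were above 0 for HDL against saline (median 0.21) and 15 for the dual group against saline (0.21), 11 for LNA92a against HDL (0.10), 6 for LNA489 against HDL (-0.04) and 10 for the dual group against HDL (0.06). The median for LNA489 was 0.08 without HDL 11, and that for the dual group against HDL was -0.02 without HDL 3 and -0.01 without dual 15. None of the 15 passed the test in any comparison, and these comparisons share their control libraries with those of the 75 genes. The smallest F-test p values among them were those of Eif3h, Tpt1 and Eef1d, each with a limma adjusted p of 1.0. Tpt1 averaged 267 ± 27.5 FPKM in saline and 420 ± 158 FPKM in the dual group (SD, n = 4). Its highest library was dual 10, at 628 FPKM, which raises the dual mean.

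The lists of genes that make ribosomes and that sense nutrients had small medians, and the signs of several turned without HDL 11. The 24 ribosome biogenesis genes had medians of 0.05 for HDL against saline (13 above 0), -0.10 for LNA92a against HDL (6 above 0), -0.12 for LNA489 against HDL (7), -0.16 for the dual group against HDL (5) and -0.06 for the dual group against saline (7). The first 4 turned, without HDL 11, to -0.10, 0.06, 0.07 and 0.04, and without Saline 24 the first was -0.03. Nop58, a core protein of box C/D particles, averaged 3.61 ± 1.44 FPKM in HDL and 1.88 ± 0.41 in LNA92a (SD, n = 4), with the smallest F-test p of that list (limma adjusted p = 1.0). Nob1, which trims the small subunit RNA, and Nop56, a partner of Nop58, followed, with means of 4.80 ± 1.197 and 12.4 ± 8.70 FPKM in HDL and of 2.81 ± 0.94 and 6.14 ± 0.98 FPKM in LNA92a. Nop56 measured 25.3 FPKM in HDL 11, and without that library its HDL mean was 8.13 ± 1.78 FPKM (SD, n = 3). Nop58 and Nob1 were also highest in HDL 11, at 5.77 and 6.32 FPKM. Of 13 genes from mTOR to the tract, 12 were tested, with medians between -0.11 (LNA92a against HDL) and 0.05 (HDL against saline), the latter -0.10 without HDL 11 and -0.04 without Saline 1. Larp1 averaged 20.9 ± 8.77 FPKM in HDL and 11.8 ± 3.39 in LNA92a. It measured 34.1 FPKM in HDL 11, and without that library its HDL mean was 16.6 ± 0.47 FPKM (SD, n = 3). FPKM ran lower in LNA92a in general, with a median over all genes of -0.47 against HDL on log2(FPKM + 0.1). Akt1s1 and Rheb, both of the mTOR complex 1 pathway, had the smallest F-test p values of that list, with means of 7.96 to 10.5 and of 7.31 to 8.47 FPKM over the groups. None of these genes passed the test. At an unadjusted p under 0.05, LNA92a against HDL gave 1 of 24 ribosome biogenesis genes and 1 of the 12 genes from mTOR to the tract. Over all genes that share was 3.53%. The dual group against HDL gave 2 of 24 and 0 of 12, beside 2.47% over all genes.

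The host genes of small nucleolar RNAs, many of them with tract-bearing transcripts, had a median of 0.23 for HDL against saline (7 of 8 above 0) and 0.05 for the dual group against saline (5 of 8). Against HDL it was 0.10 for LNA92a (6 of 8 above 0), -0.24 for LNA489 (0 of 8) and -0.30 for the dual group (1 of 8). Without HDL 11 the medians for HDL against saline, LNA489 and the dual group were 0.09, -0.10 and -0.17. For the dual group against saline it was -0.11 without Saline 24. In all comparisons 0 of 8 passed, also at an unadjusted p under 0.05. Epb41l4aos had the smallest F-test p (limma adjusted p = 1.0), with 11.3 ± 5.83 FPKM in LNA92a and 8.62 ± 1.39 in HDL. Its highest library was LNA92a 17, at 18.8 FPKM, which raises the LNA92a mean. Snhg6 followed with 4.26 ± 1.65 FPKM in the dual group and 6.12 ± 0.87 in HDL, and Snhg1 with 6.61 ± 2.28 in HDL and 4.24 ± 0.70 in saline. Snhg6 was lowest in dual 10 (2.00 FPKM), and Snhg1 was highest in HDL 11 (9.08 FPKM).

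The ribosome of the mitochondria has its own protein set, and 76 of its genes were tested. For HDL against saline their median was -0.05 with 26 above 0, where the cytosolic median was 0.19 with 73 above 0. For LNA92a against HDL the medians were 0.42 (71 of 76 above 0) and 0.18 (71 of 75 above 0), for LNA489 against HDL 0.21 and -0.07, for the dual group against HDL 0.25 and 0.04, and for the dual group against saline 0.22 and 0.24. Single libraries set the sign of some of these medians. For LNA489 against HDL without HDL 11 the mitochondrial median was 0.20 and the cytosolic 0.09, and with weighted libraries they were 0.46 and 0.12. For HDL against saline the mitochondrial median was above 0 without Saline 1 (0.10), Saline 2 (0.09), HDL 3 (0.08) or HDL 23 (0.03). The difference between the sets was not tested, and 0 of 76 mitochondrial ribosomal protein genes passed in any comparison.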

How the data were processed

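RNA was measured in 20 libraries, 4 mice in each of 5 groups, as the labels give them. The authors deposited variance-stabilized counts on a log2 scale and FPKM with gene symbols and lengths (other columns). The submitters' processing notes name DESeq2 1.18.1, featureCounts 1.15.29, STAR 2.5.3a, cutadapt 1.16 and FastQC and the build GRCm38.p5, and give no role for any of them. Not given in the sources used here were strand, the treatment of reads with several matches and the annotation release. Gene positions and shared stretches came from GENCODE M21, start sites from RefSeq.

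Whole reads were recovered from FPKM and gene length. In every library 100% of the values of genes up to 3000 bases with up to 1000 reads lay within 0.1 of a whole number. These gave depth and shares.

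Group differences came from limma 3.58.1 (R 4.3.3) with a variance trend on the deposited log2 values: 5 group means, 20 libraries, 15 residual degrees of freedom, genes with a mean FPKM of at least 0.5, Benjamini-Hochberg adjustment over all 16848 genes, calls at an adjusted p under 0.05, 2-sided. The procedure was tested on simulated data. Per comparison the text names the 3 members with the smallest p in each direction. Across libraries it names the 5 highest and lowest in level and SD, the 5 lowest and 3 highest in correlation, 12 members of known role, the 10 most alike other genes and up to 3 of each companion list. Members outside these sets (the extremes of the second component, Rpl12 and Rps18 in HDL 11, Rpl36) were chosen after their values were seen. A few genes under these rules are not reported here. Members, lists and tests were chosen with earlier results of these data known.

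Alternatives were log2(FPKM + 0.1) and log2(FPKM + 1), no filter, a mean FPKM of at least 1, median-centring, voom on the recovered reads, library weights, the compared groups alone and leaving out each library. Shares were also computed without ribosomal RNA reads. Nuclear protein-coding reads as the denominator and, for the companion lists and their named genes, leaving out each library or weighting libraries were added after seeing the data.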

Additional observations from a re-analysis of the deposited data

Results flagged for a closer look

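In groups of 4, the gap of the highest or lowest library to its nearest neighbour was compared with Dixon's 95% limit for 4 values, for 145 combinations of group and measure over 25 genes and the summed measures. Of these, 19 passed. The limit lets about 1 in 20 pass by chance when measures are picked without regard to their values. Some of the 25 genes, Rpl12 among them, entered because their levels stood out, so that rate cannot be used to judge the count. The measures are also not independent of each other.

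HDL 11 stood above HDL 3, 4 and 23 in the summed share of the ribosomal protein genes, at 2.10% of assigned reads, 2.25% of reads without ribosomal RNA and 2.74% of nuclear protein-coding reads. The same library stood apart in single genes: Rplp1 (684 FPKM), Rplp0 (542), Rpl17 (539), Rps6 (158), Rps14 (151), Rpl41 (194), Rpl12 (120), Rpl11 (99.4), Rpl39 (75.4), Rpl34 (38.5) and Rpl13a (15.3). Each was higher than in the other 3 HDL libraries.

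The other libraries that stood apart did so in 1 or 2 genes. Dual 10 was high in Rps4x (295 FPKM) and Rpl13a (12.8 FPKM), and dual 8 was high in Rps27a (43.5 FPKM). LNA92a 5 was low in Rpl5 (35.2 FPKM), and Saline 24 was low in Rpl39 (20.1 FPKM).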

How the results depend on the processing

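The count of ribosomal protein genes that passed was 0 under all 107 alternatives, so their stability says nothing of the differences. No paired analysis was possible because no animal number occurs in 2 groups. Of 464 alternative values of named members, 434 kept their sign and 30 did not.

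On log2(FPKM + 0.1), log2(FPKM + 1), median-centred values and voom, Rps29 for HDL against saline was 0.0094, 0.0086, 0.0084 and 0.0174. Rplp1 was 0.0150, 0.0151 and 0.0217 on the first 3. On the 2 FPKM scales, LNA92a against HDL gave Rps25 as -0.0599 and -0.0592 and the members' median as -0.243 and -0.241, and the dual group against saline gave Rps21 as 0.0422 and 0.0417. With library weights Rps13 was 0.106 and Rpl28 0.147 (LNA92a against HDL) and Rps21 0.0755 (dual against saline).

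Without ribosomal RNA reads the share was 1.37% in saline and 1.53% in LNA92a. Of nuclear protein-coding reads it was 1.96% for LNA92a, 1.87% for dual, 1.70% for LNA489 and 1.66% for saline. The members' mean per library, in the order saline, HDL, LNA92a, LNA489 and dual, was 2.87, 3.07, 3.18, 2.94 and 3.07 median-centred and 6.11, 6.31, 6.07, 6.20 and 6.41 on log2(FPKM + 0.1), which are other scales.

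Leaving out 1 library at a time changed the sign of 7 named differences. These ranged from -0.28 (without Saline 9) to 0.23 (without Saline 1) for Rps29 and from -0.19 (without HDL 11) to 0.15 (without HDL 3) for Rplp1, both HDL against saline. For LNA92a against HDL they ranged from -0.18 (without LNA92a 5) to 0.078 (without HDL 11) for Rps13 and from -0.16 (without HDL 3) to 0.13 (without HDL 11) for Rpl28. Rpl9 ranged from -0.056 (without HDL 23) to 0.30 (without HDL 11) for LNA489 against HDL, Rpl8 from -0.29 (without HDL 3) to 0.0054 (without HDL 11) for the dual group against HDL, and Rps21 from -0.23 (without Saline 9) to 0.19 (without Saline 1) for the dual group against saline. The members' median ranged from 0.04 (without HDL 11) to 0.34 (without Saline 1) for HDL against saline, from 0.11 (without HDL 23) to 0.34 (without HDL 11) for LNA92a, from -0.14 (without HDL 3) to 0.09 (without HDL 11) for LNA489 and from -0.05 (without HDL 23) to 0.19 (without HDL 11) for the dual group, each against HDL, and from 0.08 (without Saline 24) to 0.38 (without Saline 1) for the dual group against saline. The cause of these changes was not tested.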
